A study of Homo sapiens with 8 samples.

Results

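IAH1, ZC4H2, SAMD5 and GALNT5 are 4 genes with few nascent reads in control HCT116 cells and several times more in HCT116 cells labelled as lacking TOP2B. They were picked by symbol from the 18638 gene models of the count tables because of that contrast, so their HCT116 values are given as a description, with no test. The assay was factory-seq, a nascent RNA method: nuclei are treated with DNase I, lysed natively and digested with caspases, and the RNA released from transcription sites is sequenced. The 8 libraries come from 2 human colorectal cancer cell lines, with 2 libraries in each of 4 groups. DLD-1 cells carried mAID-mClover-POLR2A and Tet-OsTIR1, so that the catalytic RNA polymerase II subunit RPB1 is tagged and TIR1 is inducible, and were untreated or given auxin. HCT116 cells carried TOP2A-mAID in both groups, and the genotype of the second group adds a TOP2B-/- allele state, spelled TO2B-/- in the labels. With auxin and the plant F-box protein TIR1 present, a mAID-tagged protein is ubiquitinated and degraded. The protocol gives doxycycline for 24 h and auxin at 500 µM for 14 h.

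Labels of the TOP2B-/- libraries conflict. Their titles read as control, while their treatment value and the names of their count columns read as auxin, so loss of TOP2B and depletion of TOP2A by auxin cannot be told apart in the HCT116 comparison. The labels do not say how TOP2B was edited, whether a line is 1 clone, whether untreated cells received doxycycline, whether G1 cells were sorted here, or whether replicates were separate cultures, so p-values measure the spread between these libraries, which may be technical. Library totals were 10739622 to 62626875 reads in DLD-1, lowest after auxin, and 32129400 to 36491540 in HCT116. Of 11 colorectal epithelial markers, 6 to 8 had at least 5 times the background reads in both libraries of every group, among them EPCAM, CDH1 and KRT8, while LGALS4, VIL1 and CDX1 did not in any group. The summed epithelial list was at 4026 to 4886 CPM (reads per 1000000 counted reads) in HCT116 controls and at 2965 to 3281 CPM in the TOP2B-/- libraries. None of 4 immune and 3 endothelial markers reached that multiple of background in any group, and of 6 fibroblast markers COL1A1 alone did, in both HCT116 groups. Among 4 neuronal markers SYT1 alone did, in HCT116, where the summed list was at 107.7 and 135.8 CPM in the controls and at 449.4 and 456.5 CPM in the TOP2B-/- libraries. The part of these shifts in the values below was not tested. TOP2B itself fell from 187.1 ± 1.15 to 134.1 ± 0.18 CPM (SD, n = 2; log2 fold change -0.50, edgeR adjusted p = 0.027), so reads over it remained under the TOP2B-/- label.

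TOP2B is a type II topoisomerase that passes one DNA duplex through another and relieves torsion around transcribed genes. TOP2A does the same work mainly in dividing cells. The 4 genes have unrelated products. IAH1 encodes a small esterase of the SGNH hydrolase family, named after the yeast enzyme that hydrolyses isoamyl acetate. ZC4H2 encodes a nuclear zinc finger protein that acts with the ubiquitin ligases RNF220 and RLIM, and its loss of function causes an X-linked neurodevelopmental syndrome. SAMD5 encodes a small protein with a sterile alpha motif, a fold that binds other proteins. GALNT5 encodes a Golgi transferase that starts mucin-type O-glycosylation by adding GalNAc to serine and threonine.

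Coordinates are those of the deposited tables on GRCh38, which for these 4 genes count over the full span of the model, introns included. IAH1 spans 13922 bp on the plus strand of chromosome 2, from 9474540 to 9488462. GALNT5 lies on the same chromosome and strand, from 157257827 to 157311401, over 53574 bp. SAMD5 takes up 61330 bp of the plus strand of chromosome 6, from 147508691 to 147570021. ZC4H2 is on the minus strand of chromosome X, from 64915801 to 65034744, over 118943 bp. The median model was 23632.5 bp long, and 36.4% of models were shorter than IAH1 against 86.9% for ZC4H2. The later RefSeq annotation of GRCh38.p14 extends SAMD5 to 445991 bp and IAH1 to 38597 bp, so the counted models leave out part of these genes. No other counted model overlapped any of the 4.

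RefSeq promoter windows, 250 bases before to 50 after a start site, were found for IAH1 and ZC4H2. The windows whose annotated start sites lay 11 bp and 3 bp from the ends of the counted models are printed. These are the genes with the largest HCT116 differences. The start sites used in these cells were not measured. Capitals mark matches to GGGCGG on either strand.
IAH1, GRCh38.p14 chr2:9474301-9474600, plus strand: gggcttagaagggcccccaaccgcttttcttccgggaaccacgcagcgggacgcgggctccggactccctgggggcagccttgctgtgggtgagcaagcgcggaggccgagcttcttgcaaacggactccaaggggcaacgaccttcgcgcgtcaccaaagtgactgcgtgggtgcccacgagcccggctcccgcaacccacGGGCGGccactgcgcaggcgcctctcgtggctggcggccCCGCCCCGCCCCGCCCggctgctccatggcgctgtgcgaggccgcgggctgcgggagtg
ZC4H2, GRCh38.p14 chrX:65034692-65034991, minus strand: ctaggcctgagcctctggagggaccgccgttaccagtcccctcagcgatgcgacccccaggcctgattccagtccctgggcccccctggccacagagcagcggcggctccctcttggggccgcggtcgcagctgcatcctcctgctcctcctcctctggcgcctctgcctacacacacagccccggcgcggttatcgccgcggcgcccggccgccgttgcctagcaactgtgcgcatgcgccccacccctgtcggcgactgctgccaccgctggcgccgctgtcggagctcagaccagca
Both printed windows were rich in CpG. IAH1 had 34 CpG dinucleotides and ZC4H2 had 28, against a median of 14 over 35114 windows, and 84.4% and 73.8% of windows had fewer. GGGCGG, the letters of a GC box, matched in the IAH1 window, where the last 3 of the 4 matches overlap by 1 base each, and in 45.0% of all windows. It did not match in the ZC4H2 window. Also searched on both strands were TATAAA (in 11.5% of all windows), CCAAT (in 34.6%), CACGTG (in 7.26%) and TGACTCA (in 4.95%), and these letters were in neither printed window. Each gene also had a window that is not printed. That of IAH1, with its start site 515 bp from the model end, had 42 CpG, and 94.2% of windows had fewer. That of ZC4H2, 58294 bp from the model end, had 9, and 41.6% of windows had fewer.

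IAH1 had the largest HCT116 difference as fitted, though with background-subtracted counts ZC4H2 (log2 4.29) lay level with it (4.24). The controls had 43 and 49 reads and the TOP2B-/- libraries 764 and 749, which is 1.29 and 1.34 CPM against 22.0 and 23.3 CPM. The exact 95% Poisson intervals of the control counts, which cover counting error only, were 31.1 to 57.9 and 36.3 to 64.8 reads. The level was 1.32 ± 0.035 CPM in controls and 22.7 ± 0.93 CPM in the TOP2B-/- group (SD, n = 2), a 16.8-fold difference by edgeR (log2 4.07, SE 0.13). The 4 pairings of single libraries gave log2 ratios from 4.03 to 4.17.

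ZC4H2 came next. The controls had 88 and 78 reads over it, against 990 and 882 with TOP2B-/-, or 2.65 and 2.14 CPM against 28.5 and 27.5 CPM. Its log2 fold change was 3.53 (SE 0.15), an 11.5-fold difference, and single pairings gave 3.37 to 3.74. This X-linked gene had the longest counted model of the 4 and the lowest read density in both groups.

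SAMD5 and GALNT5 started from higher levels and differed less. SAMD5 had 339 and 349 control reads against 1969 and 1781, or 9.88 ± 0.45 and 56.1 ± 0.88 CPM (SD, n = 2). The difference was 5.58-fold (log2 2.48, SE 0.069). GALNT5 had 351 and 355 reads against 1732 and 1605, or 10.1 ± 0.59 and 49.9 ± 0.073 CPM (SD, n = 2), a 4.84-fold difference (log2 2.28, SE 0.073). Replicates of either group lay close together for both genes, and the groups did not overlap for any of the 4, as the choice of genes fixed. Across the comparison 3.41% of 15273 genes tested were called, with 1.75% higher and 1.66% lower in the TOP2B-/- group. The HCT116 calls of neighbours, family members and TOP2B given here all rest on both TOP2B-/- libraries, since edgeR called 0 genes without replicate 1 (2266 at an unadjusted p under 0.05) or without replicate 2 (1286). SMAD1, NCEH1, FBXO30 and ACVR1, described below, were also not called without control replicate 2 (adjusted p = 0.067, 0.097, 0.12 and 0.056). With no count filter NCEH1, FBXO30 and ASAP2 just missed the threshold (adjusted p = 0.0504, 0.057 and 0.0501). ASAP2 was also not called by edgeR with library totals alone (adjusted p = 0.059) or DESeq2 size factors (adjusted p = 0.053). None of the neighbours, family members and TOP2B was called in a fit over all 8 libraries or with the replicate number as a block.

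**Figure D1:**
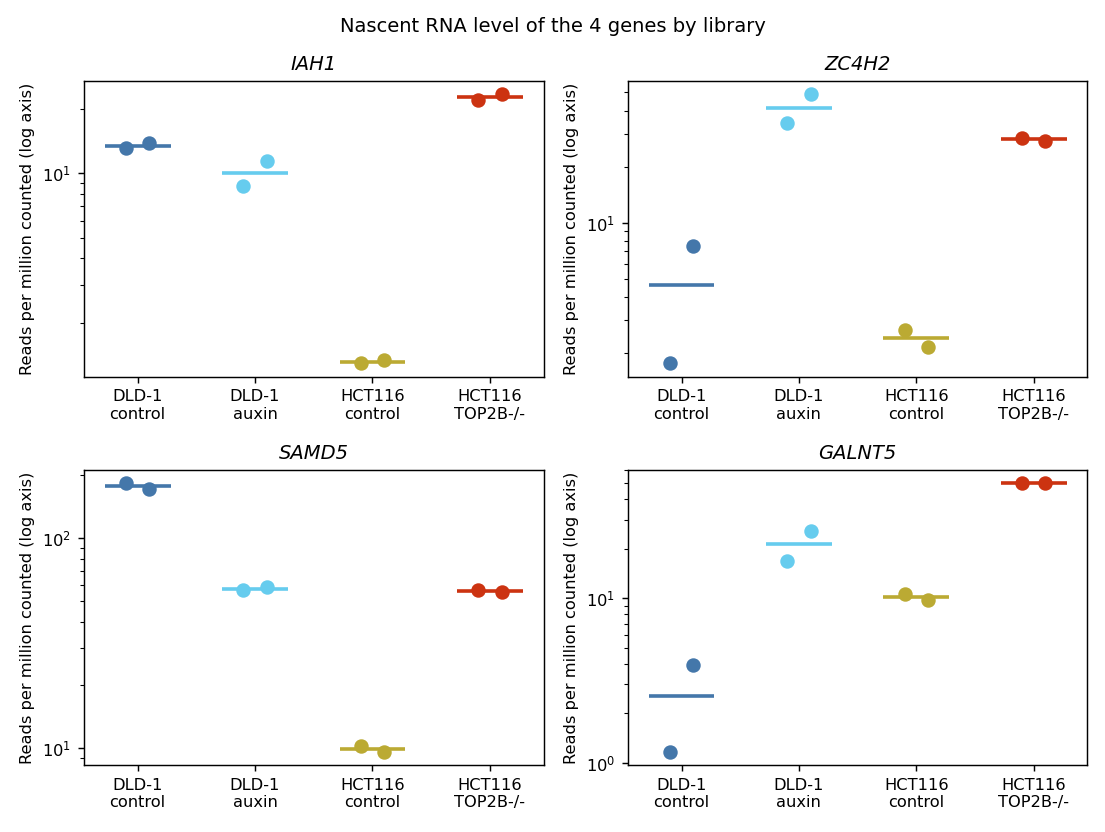
CPM (log axis) for each of the 4 genes in the 8 libraries, with points for libraries and bars for group means. In HCT116 the TOP2B-/- points of IAH1 sit at 22.0 and 23.3 CPM, above the controls at 1.29 and 1.34, and in DLD-1 the auxin points lie lower for SAMD5 (56.6 and 58.3 against 183.3 and 171.1) and higher for ZC4H2 and GALNT5.

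Per kilobase of counted length the order of the genes was different. In HCT116 controls GALNT5 (0.189 ± 0.011 RPKM, which is CPM divided by kilobases) and SAMD5 (0.161 ± 0.0073 RPKM) were highest, followed by IAH1 (0.0947 ± 0.0025 RPKM) and ZC4H2 (0.0201 ± 0.0030 RPKM; SD, n = 2). In the TOP2B-/- group IAH1 was highest at 1.63 ± 0.067 RPKM. GALNT5 at 0.931 ± 0.0014 RPKM and SAMD5 at 0.914 ± 0.014 RPKM differed there by little more than their spread, and ZC4H2 was lowest at 0.235 ± 0.0062 RPKM. These levels were modest among all models. In the TOP2B-/- group 72.9% of gene models had a lower mean RPKM than IAH1, 60.0% than GALNT5, 59.7% than SAMD5 and 42.2% than ZC4H2.

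Reads over genes taken as silent served as background, and whether they come from low transcription was not tested. Their density differed between libraries. It was estimated as the median read density over 3111 genes with the lowest control density in the opposite line, and GALNT5 itself was among those used for HCT116. Extended to all models it made up 1.79% and 0.27% of reads in the HCT116 controls, 1.26% and 3.04% in the TOP2B-/- libraries, 2.24% and 9.02% in the DLD-1 controls, and 39.5% and 59.5% after auxin. Control replicate 2 of HCT116 had the lowest background of the 8 libraries. In the HCT116 controls GALNT5 had 12.6 and 78.0 times the background reads, SAMD5 10.6 and 67.0 times, and IAH1 5.93 and 41.5 times. ZC4H2 had 1.42 and 7.72 times the background, and the upper quartile of the silent genes was 1.88 and 7.13 times their median, so its control reads were not clearly above background. GALNT5, SAMD5 and IAH1 thus had reads above background in both control libraries and were low rather than silent. In the TOP2B-/- libraries the ratios were 143.1 and 63.0 for IAH1, 21.7 and 8.69 for ZC4H2, 83.7 and 34.0 for SAMD5, and 84.3 and 35.1 for GALNT5. On this measure the groups did not overlap for IAH1 and ZC4H2 but overlapped for SAMD5 and GALNT5, where control replicate 2 exceeded TOP2B-/- replicate 2. Subtracting the background widened the log2 difference of ZC4H2 to 4.29 and left those of IAH1, SAMD5 and GALNT5 at 4.24, 2.58 and 2.36.

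**Figure D2:**
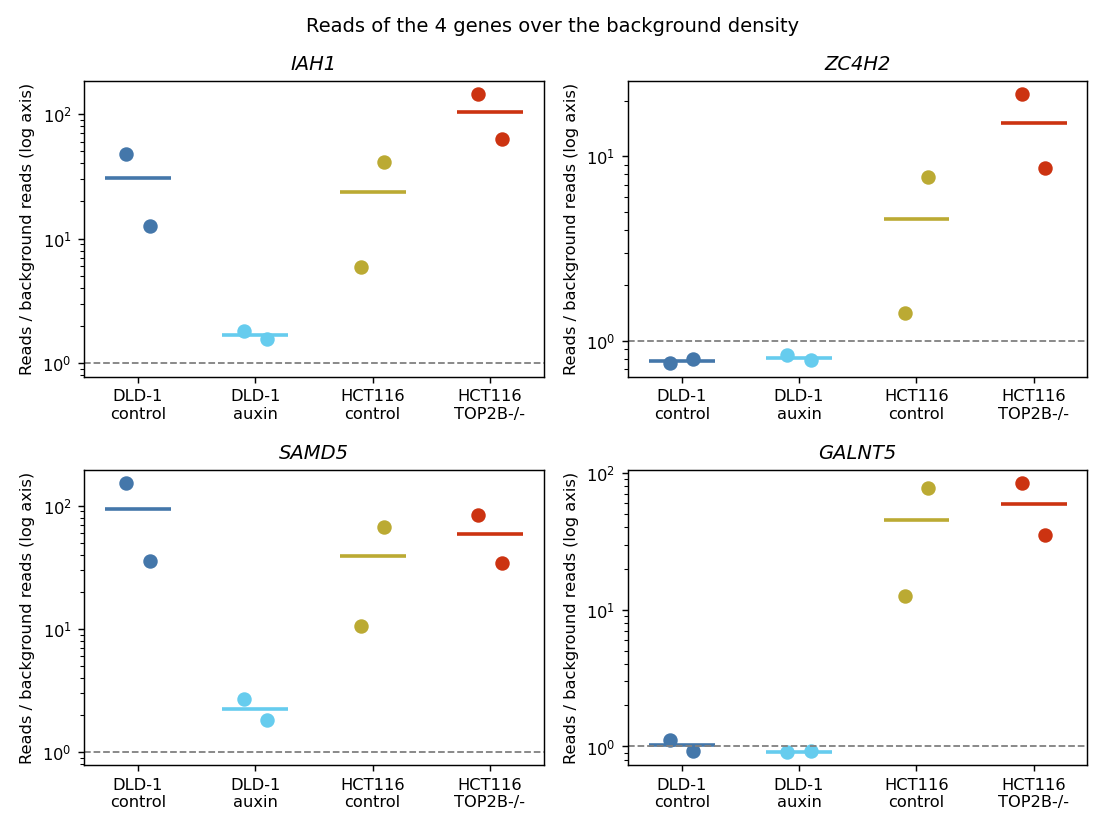
Reads of each gene divided by the reads that the background density of the same library gives over its length (log axis), with points for libraries, bars for group means and a dashed line at 1. In DLD-1 ZC4H2 and GALNT5 lie at 0.75 to 1.11 in all 4 libraries, and all 4 genes lie above the line in HCT116, where the groups overlap for SAMD5 and GALNT5.

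In the whole HCT116 comparison, 4 genes had a larger log2 fold change than IAH1, so that it ranked 5 of 15273, with ZC4H2 at 9, SAMD5 at 24 and GALNT5 at 38. Within the bounds the 4 genes span, a control mean of at most 10.1 CPM and a log2 fold change of at least 2.28, there were 36 genes. Only 15 of the 36 had 20 or more reads in both control libraries, and the 4 genes were among these. EdgeR called 13 of the 36, against 3.41% of all genes tested, a share that the bound on fold change raises. The 13 include the 4 genes, whose calls are no test because this contrast chose them. Near the lower bound were genes with few reads such as TBX21 (7 and 2 control reads, log2 fold change 2.29) and SLCO1C1 (9 and 3 control reads, 2.29). The genes used to set the HCT116 background had a median log2 fold change of 0.72 over 1921 tested, against 0.034 for all genes tested. Above IAH1 stood ZNF182, a zinc finger gene on chromosome X, with 11 and 4 control reads against 863 and 796 (log2 fold change 6.79, SE 0.50). VSNL1, which encodes a neuronal calcium sensor, had 46 and 4 control reads against 1427 and 1331 (5.80, SE 0.995). RAD51AP2 (2 and 1 control reads, 4.95) and ZNF804A (236 and 129 control reads, 4.82) also lay above IAH1. Of these, VSNL1 and RAD51AP2 were not called (edgeR adjusted p = 0.072 and 0.053), while ZNF182 and ZNF804A were. CYP1B1, a steroid and xenobiotic oxidase, had 18 and 25 reads against 239 and 222 (3.46, SE 0.25). CXCR4, KRT23 and CSTA were in the set on at most 9 reads in either control and were not called (edgeR adjusted p = 0.26, 0.26 and 0.13).

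**Figure D3:**
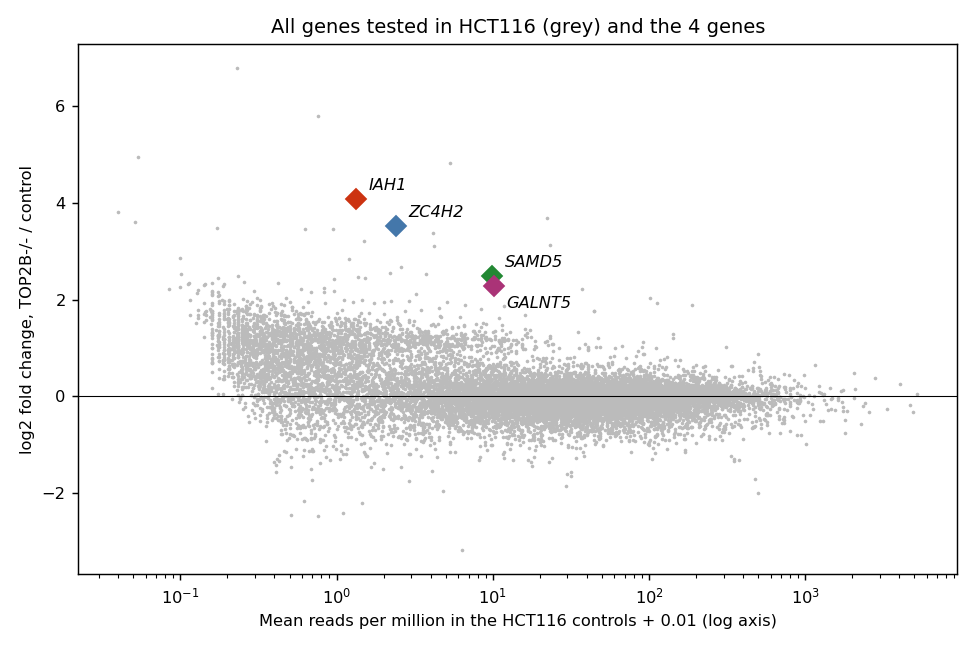
Log2 fold change of TOP2B-/- over control against the mean CPM of the HCT116 controls plus 0.01 (log axis) for all 15273 genes tested, with the 4 genes as diamonds. IAH1 (4.07) and ZC4H2 (3.53) lie above most genes of like control level, and SAMD5 and GALNT5 lie together near 10.1 CPM at 2.48 and 2.28.

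Neighbouring genes show how far along the chromosome the differences reached. IAH1 sat between CPSF3, an mRNA 3' end processing subunit 1430 bp upstream on the same strand, and ADAM17, a membrane sheddase 818 bp downstream on the opposite strand. CPSF3 had 91.9 ± 2.18 CPM in controls and 104.4 ± 2.60 CPM in the TOP2B-/- group (SD, n = 2; log2 fold change 0.16, edgeR adjusted p = 0.196), and ADAM17 had 155.3 ± 1.71 and 166.6 ± 0.32 CPM (0.078, adjusted p = 0.341). Neither was called, and IAH1 stood between them with a 16.8-fold difference. The sources do not say whether counting used strand, so reads of an overlapping or extended transcript could not be told apart from those of IAH1, and the longer RefSeq span of IAH1 runs into ADAM17.

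The adjacent genes tested beside ZC4H2 and GALNT5 were not called either. MTMR8, a phosphoinositide phosphatase family member and the adjacent model on one side of ZC4H2 at 520348 bp, had a log2 fold change of 0.0069 (adjusted p = 0.974). ZC3H12B, adjacent on the other side, had too few reads to be tested, and LAS1L beyond it, the nearest gene tested at 477837 bp, had -0.13 (adjusted p = 0.370). GPD2, the mitochondrial glycerol phosphate dehydrogenase and the adjacent model on one side of GALNT5 at 671424 bp, had 0.24 (adjusted p = 0.071). ERMN, 7211 bp from GALNT5 on the opposite strand, was not tested. CYTIP, the nearest gene tested at 103217 bp, had 0.99 (adjusted p = 0.667). SAMD5 differed in this respect. Its neighbours STXBP5, a regulator of vesicle fusion, and SASH1, a scaffold protein, were both called higher, at 0.44 (adjusted p = 0.028) and 0.69 (adjusted p = 0.042), though both were far below the 2.48 of SAMD5. They lay 118215 bp and 772571 bp from it. Over the 10 models on each side, 71 of 80 were tested, 5 were called higher and 1 lower, or 8.45% against 3.41% of all genes. Flanking medians were 0.078 for IAH1, -0.054 for ZC4H2, 0.14 for SAMD5 and 0.25 for GALNT5. The other calls were HPCAL1 (1.28), a calcium sensor gene 9 models from IAH1, ASAP2 (-0.36), FBXO30 (0.33) and ACVR1 (0.45).

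**Figure D4:**
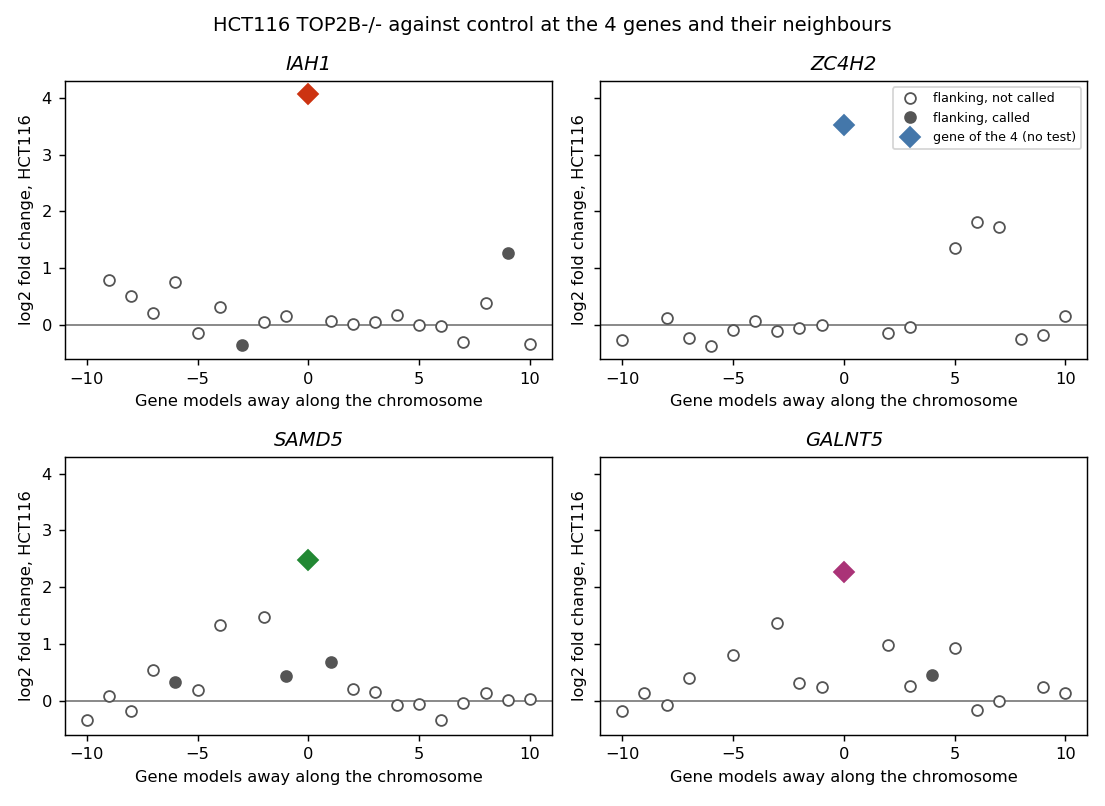
HCT116 log2 fold change of each of the 4 genes (diamond) and of the tested genes among the 10 models on each side, in chromosomal order (filled circles are called at an edgeR adjusted p under 0.05, open circles are not). IAH1 at 4.07 stands between neighbours at 0.16 and 0.078, and SAMD5 at 2.48 between STXBP5 at 0.44 and SASH1 at 0.69.

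The 4 genes fell into different classes in control DLD-1 cells. SAMD5 was well transcribed there, with 11479 and 6316 reads, 177.2 ± 8.60 CPM (SD, n = 2), and 88.8% of gene models had a lower mean RPKM. This was 17.9 times its CPM in HCT116 controls, and the TOP2B-/- level reached 31.6% of it. IAH1 had 821 and 509 reads in DLD-1 controls, 13.5 ± 0.48 CPM, which was 10.2 times its level in HCT116 controls and below the 22.7 CPM of the TOP2B-/- group. The lines were counted in separate tables, so cell line and table cannot be told apart.

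ZC4H2 and GALNT5 were at background in DLD-1. ZC4H2 had 110 and 275 reads in controls and 484 and 524 after auxin, which was 0.75, 0.79, 0.83 and 0.79 times the background reads. GALNT5 had 73 and 145 reads in controls and 239 and 276 after auxin, or 1.11, 0.93, 0.91 and 0.92 times the background. No transcription of either gene was detectable above background at this depth in any DLD-1 library. In HCT116 controls GALNT5 had 10.1 CPM against 2.55 ± 1.95 CPM in DLD-1 controls. Among the 36 genes of the HCT116 set, 9 (25%) had at least 5 times the background in both DLD-1 controls, as did 21.0% of 5512 tested genes with control levels as low in HCT116. SAMD5 and IAH1 were among the 9, with ZNF182, VSNL1, CYP1B1, SYK, COCH, CYP4F11 and RND3.

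The DLD-1 comparison, whose fold changes were not used to choose the genes, asks how their share of reads changed after auxin depletion of RPB1. Both CPM and the fits scale each library by its own counts, so a loss of transcription shared by most genes would not show. Falls and rises in DLD-1, here and below, are therefore relative to other genes, and absolute loss was not tested. SAMD5 fell from 183.3 and 171.1 CPM in controls to 56.6 and 58.3 CPM after auxin. Its log2 fold change was -2.27 (SE 0.17, edgeR adjusted p = 0.0042), and the call held under every alternative tried, with values from -2.36 to -1.62. The auxin libraries still had 2.68 and 1.83 times the background over SAMD5. IAH1 had 13.1 and 13.8 CPM in controls and 8.67 and 11.4 CPM after auxin, so the groups did not overlap, and CPM ratios of single libraries ran from -0.67 to -0.21 on the log2 scale. Its fitted log2 fold change was -1.07 (SE 0.27, edgeR adjusted p = 0.027). The call was lost with library totals alone (-0.43, adjusted p = 0.226), with background-subtracted counts (-0.96, adjusted p = 0.073) and without auxin replicate 1 (-0.82, adjusted p = 0.128) or 2 (-1.23, adjusted p = 0.098). Its auxin reads were 1.81 and 1.57 times the background.

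ZC4H2 and GALNT5 were called higher after auxin, at 2.56 (SE 0.71, edgeR adjusted p = 0.032) and 2.45 (SE 0.64, adjusted p = 0.029). The genes used to set the DLD-1 background had a median of 2.51 in the same fit, with quartiles of 2.32 and 2.75, so both values lay within the quartiles of those genes. Neither call was made without auxin replicate 1 (adjusted p = 0.122 for ZC4H2 and 0.116 for GALNT5) or 2 (0.175 and 0.173). After background subtraction ZC4H2 had 0 reads left in every DLD-1 library and GALNT5 had 7, 0, 0 and 0, so neither could be tested. All 4 genes were thus called in DLD-1, 2 in each direction, where 67.3% of 17625 genes were called, 32.2% higher and 35% lower.

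**Figure D5:**
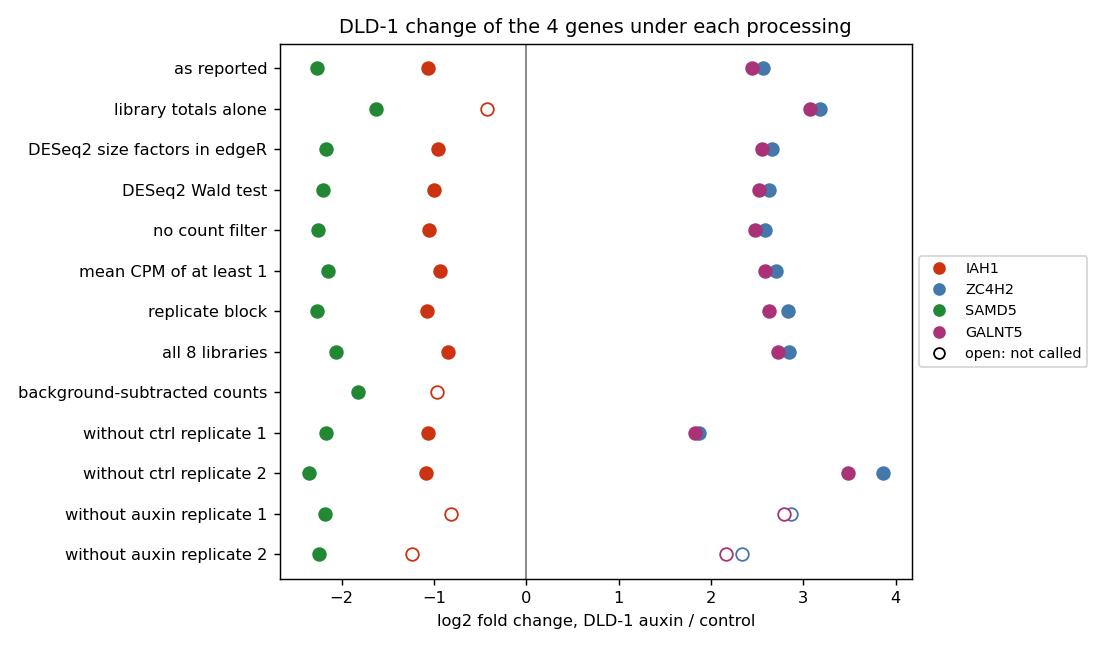
DLD-1 log2 fold change of auxin over control for each gene under the reported processing and each alternative (filled points are called at an adjusted p under 0.05). SAMD5 stays called between -2.36 and -1.62, IAH1 loses its call in 4 settings, and ZC4H2 and GALNT5 have no value with background-subtracted counts.

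Over 5 lists of genes related to the 4 by family or pathway, 3 of 69 tested were called in HCT116, or 4.35% against 3.41% of all genes. Of 18 other polypeptide GalNAc transferases tested, edgeR called 0 (5 at an unadjusted p under 0.05; median log2 fold change 0.38, range -0.14 to 1.74) and DESeq2 called 2. GALNT5 ranked 10 of 19 family members by mean RPKM in HCT116 controls and 5 in the TOP2B-/- group. In DLD-1, 8 of 17 other transferases were called higher and 3 lower (median 0.47), or 64.7% against 67.3% of all genes tested. The largest rise, of GALNTL5 (2.65), was in a gene with 0.73 and 0.98 times the background reads in DLD-1 controls. Of 2886 genes used to set the DLD-1 background and tested, 77.8% were called higher. Rises after auxin in this list and the lists below were not separated from that background. The falls were those of GALNT11 (-2.26, adjusted p = 0.0042), GALNT6 (-1.15, 0.015) and GALNT10 (-0.72, 0.020). Of the enzymes that extend the O-glycans, 0 of 13 were called in HCT116 by edgeR or DESeq2 (2 at an unadjusted p under 0.05 in edgeR; median 0.016). In DLD-1, B3GNT3 fell by 2.12 on the log2 scale (edgeR adjusted p = 0.0043), and 6 of the 13 were called higher and 3 lower, or 69.2% against 67.3% of all genes.

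Among 14 other SAMD genes, SAMD3 was called higher in HCT116, from 41.0 ± 4.71 to 84.2 ± 0.15 CPM (SD, n = 2; log2 fold change 1.02, edgeR adjusted p = 0.025), and the median was 0.36. SAMD5 ranked 10 of 15 by mean RPKM in HCT116 controls and 6 in the TOP2B-/- group, and it ranked 2 of 15 in DLD-1 controls. After auxin SAMD4A (-2.58), an RNA-binding translational repressor, and SAMD12 (-2.55) fell with adjusted p of 0.0042, as SAMD5 did, and 5 of the 14 were called higher and 4 lower, or 64.3% against 67.3% of all genes.

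Of the ZC4H2 partners and targets, 11 others were tested in HCT116. SMAD1, a BMP signal transducer, was called higher, from 29.6 ± 0.96 to 43.6 ± 0.95 CPM (SD, n = 2; 0.53, edgeR adjusted p = 0.034). The ligases RNF220 (0.12) and RLIM (-0.045) were not called there. In DLD-1, where 32.2% of all genes were called higher and 35% lower, 5 of 13 were higher and 6 lower, with falls of SMAD5 (-1.73, adjusted p = 0.0042) and RLIM (-1.62, 0.0065). Of 13 other carboxylesterases and SGNH hydrolases tested in HCT116, NCEH1, a cholesteryl ester hydrolase, was called higher at 0.34 (adjusted p = 0.042). In DLD-1, 3 of 15 were higher and 6 lower, the latter including PCED1B (-2.30) and NCEH1 (-1.65), which is 60% called against 67.3% of all genes.

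The genes closest to the 4 in level over all 8 libraries were found by Euclidean distance on log2(CPM + 0.5). ZNF182 (distance 2.08) and LRRCC1 (2.64) were nearest to IAH1, LRIG1 (1.58) and PKIA (1.76) to ZC4H2, FRK (2.02) and FAR2 (2.03) to SAMD5, and DSC3 (1.39) and AFAP1L1 (1.78) to GALNT5. In HCT116 their log2 fold changes were 6.79 and 1.97, 2.11 and 3.21, 1.17 and 1.62, and 1.33 and 0.49. The HCT116 libraries that chose the 4 genes entered the distance, so the match itself favoured values above 0. For ZC4H2 and GALNT5 the DLD-1 levels that were matched lay at background. FRK alone lies on the chromosome of the gene it was nearest to.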

How the data were processed

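Per the labels, reads were aligned to hg38 with STAR, and the deposited tables hold raw read counts for 18638 RefSeq gene models in 8 libraries. The sources used here give no aligner version, strand setting or filter. The authors' tables of changed genes (fold changes, p-values and normalized values, with DESeq2 named) were not used. The paper supplied describes another experiment.

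Each comparison was fitted on its 4 libraries with edgeR 4.0.16 in R 4.3.3 (quasi-likelihood test, filterByExpr, TMM, two-sided, Benjamini-Hochberg at 0.05 over all genes tested). SEs were derived from the F statistic. CPM used the summed counts of each library. DESeq2 1.42.0 was an alternative. Background was the median density over models spanning 5000 bp or more, without chromosome Y, whose control density in the opposite line was in the lowest 20% of their chromosome. In simulated HCT116 data with 14783 genes run, 99% of 100 genes changed by 1.5 on the log2 scale were recovered, with 15 false calls. The simulation gave all genes the same dispersion, changed no gene with very few expected reads and had no library-specific background. Its recovery therefore need not hold for low genes in the real libraries. Replicates differed beyond counting noise in every group.

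The 4 genes, the lists and the tests were chosen with earlier results of these data known. Named genes were the 4, their nearest neighbours, up to 3 called genes per list, up to 10 genes within their bounds and the 2 nearest profiles. Other names were chosen after their values were seen. Protein comparisons were not made.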

Additional observations from a re-analysis of the deposited data

How the results depend on the processing

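The HCT116 log2 fold changes of the 4 genes stayed above 0 under all alternatives. Leaving out a library gave 4.01 to 4.06 for IAH1, 3.34 to 3.65 for ZC4H2, 2.40 to 2.51 for SAMD5 and 2.18 to 2.30 for GALNT5. Background-subtracted counts gave 4.24, 4.29, 2.58 and 2.36. The number of HCT116 calls was unstable. Against 521, it was 1849 with DESeq2, 854 with a mean CPM of at least 1, 2289 with background-subtracted counts, 5 in a fit over all 8 libraries, and 0 to 2519 without a replicate (0 without either TOP2B-/- library, with 2266 and 1286 genes at an unadjusted p under 0.05, and 2519 without control replicate 1). The cause was not tested.

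With the replicate number as a block, edgeR called 0 genes in HCT116 (2177 at an unadjusted p under 0.05) and 12963 in DLD-1, where the 4 calls held. Same-numbered libraries deviated together at a correlation of 0.56 in DLD-1 and of -0.82 in HCT116, and nothing in the labels says that the numbers pair libraries. A crossed pairing in HCT116, chosen after seeing the data, gave 1808 calls.

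In DLD-1, calls numbered 2393 to 12732 without a replicate, lowest without auxin replicate 1 and then 3165 without auxin replicate 2, against 11855. IAH1 was not called with library totals alone (-0.43) or background-subtracted counts (-0.96), and its values without a replicate ran from -1.23 to -0.82. ZC4H2 ran from 1.87 to 3.86 and GALNT5 from 1.83 to 3.49 without a replicate, with neither called once an auxin library was left out. Of the flanking genes, 6 were called in HCT116, against 0 to 21 under the alternatives. Background, at 39.5% and 59.5% of reads after auxin, limits what can be read from low genes in DLD-1.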

Other observations

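Chromosomes were counted after the values were seen. Of the 36 HCT116 genes within the bounds spanned by IAH1, ZC4H2, SAMD5 and GALNT5, 9 lay on chromosome 2 (25%) and 5 on chromosome X (13.9%), against 6.66% and 4.01% of the 5512 tested genes with control levels as low. Those on chromosome 2 were VSNL1, RAD51AP2, ZNF804A, IAH1, CXCR4, CYP1B1, RND3, SDPR and GALNT5. Several of them rest on few reads, such as CXCR4 with 2 and 0 control reads and SDPR with 6 and 1. The 36 were bounded by the same HCT116 values that chose the 4 genes, which are counted among them. EdgeR called 13 of the 36, against 3.41% of all genes tested, a share that the bound on fold change raises. The 4 genes are also among the 13, and their calls are no test. The difference in chromosome shares was not tested.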
